A study of Mus musculus with 27 samples.

Results

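The 10 genes described here encode regulators of G protein signalling (RGS): Rgs2, Rgs4, Rgs7, Rgs8, Rgs9, Rgs10, Rgs14, Rgs16, Rgs17 and Rgs20. They were taken by symbol from 18193 gene symbols on the array, each read from its brightest probe set over 27 arrays, and all 10 lay among the 12017 genes bright enough to be tested. The RNA was bound to GFP-tagged ribosomes (L10a-GFP) that were precipitated from the striatum of male mice aged 2-5 months, a method known as translating ribosome affinity purification (TRAP). The tag was carried by neurons expressing the dopamine receptor D1 (Drd1-TRAP) or D2 (Drd2-TRAP). Most such neurons are the projection neurons of the direct and indirect pathway, and cholinergic interneurons also express D2. Summed markers of cholinergic interneurons ran from 107 to 130 in D1 arrays and from 261 to 786 in D2 arrays, with Chat below the floor of 6 in every array. Every mouse, controls included, had both copies of G9a floxed (G9a fl/fl). G9a, encoded by Ehmt2, adds methyl groups to lysine 9 of histone H3. Mutants also carried Drd1-Cre with the Drd1 tag or Drd2-Cre with the Drd2 tag, and controls carried no Cre, so loss of G9a and the presence of the Cre transgene cannot be told apart. Mice received 8 injections of saline or of cocaine at 20 mg/kg/day and were killed 2 h after the last. The titles of the D2 mutants write the tag as Drd-TRAP; it was read as the Drd2 tag from their tissue label. The strain was a mix of C57BL/6 and 129/Sv.

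The D1 arrays comprised 6 controls (2 saline, 4 cocaine) and 7 mutants (3 saline, 4 cocaine), and the D2 arrays 7 controls and 7 mutants (each 3 saline, 4 cocaine). Values are log2 intensities, and a change is a log2 difference with its standard error (SE), in which saline and cocaine arrays weigh equally unless a drug is named. A gene is said to be higher or lower, or to have risen or fallen, when its adjusted p was under 0.05 (limma, Benjamini-Hochberg over all genes tested). Levels of different genes were not compared, because probe sets differ in brightness for the same amount of RNA. In RNA pooled from many cells, fewer cells of a type and less RNA per cell cannot be told apart.

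The labels were checked first. Ehmt2 lay between 9.95 and 10.74 in D1 controls and between 8.03 and 9.37 in D1 mutants, and between 10.67 and 11.01 in D2 controls and 8.68 and 9.38 in D2 mutants, with no overlap in either subtype. Whether its probe set lies in the deleted exons was not tested. All 8 tested D1 markers were higher and all 8 tested D2 markers lower in D1 controls than in D2 controls. For replicate 4 of the D2 mutants given cocaine, the source name says control and the title says mutant; its Ehmt2 value was 8.96, inside the mutant range. Ttr, a choroid plexus transcript, exceeded 9.5 in 3 arrays.

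RGS proteins bind the active, GTP-bound alpha subunit of a heterotrimeric G protein and speed its GTP hydrolysis, which shortens the signal of the receptor upstream. In the striatum, dopamine D2, opioid and cannabinoid receptors signal through alpha subunits of the Gi/o class that most RGS proteins act on, whereas the D1 receptor signals through Golf, on which classical RGS proteins have little activity. The members fall into 4 subfamilies: R4 (Rgs2, Rgs4, Rgs8, Rgs16), small proteins with little beyond the RGS domain; R7 (Rgs7, Rgs9), which need the beta subunit Gnb5 for stability; RZ (Rgs17, Rgs20), which act on Gz and Gi; and R12 (Rgs10, Rgs14).

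The 250 bases before the transcription start are given for the 3 genes that carry the drug and genotype results and have an entry in the promoter table used (RefSeq, GRCm38.p6, which held 8 of the 10 genes, Rgs14 and Rgs20 not among them): Rgs2, the member that rose with cocaine, and Rgs10 and Rgs16, which changed in G9a mutants. Each is written 5′ to 3′ on the strand of the gene. Capitals mark matches on either strand to the core of the cAMP response element (TGACG), the AP-1 motif (TGANTCA), the GC box (GGGCGG) or the TATA box (TATAAA).
Rgs2 (chr1:144004150-144004399, minus strand): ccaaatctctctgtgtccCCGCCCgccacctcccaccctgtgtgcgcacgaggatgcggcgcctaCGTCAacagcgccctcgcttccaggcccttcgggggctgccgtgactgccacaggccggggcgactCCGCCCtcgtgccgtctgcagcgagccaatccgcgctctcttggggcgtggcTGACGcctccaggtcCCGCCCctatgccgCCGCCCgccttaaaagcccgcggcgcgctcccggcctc
Rgs10 (chr7:128418173-128418422, minus strand): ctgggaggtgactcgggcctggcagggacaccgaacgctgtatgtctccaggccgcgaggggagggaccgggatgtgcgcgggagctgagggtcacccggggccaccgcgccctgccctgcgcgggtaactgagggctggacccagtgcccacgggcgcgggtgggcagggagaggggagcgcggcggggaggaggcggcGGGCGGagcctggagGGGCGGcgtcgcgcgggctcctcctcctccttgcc
Rgs16 (chr1:153740103-153740352, plus strand): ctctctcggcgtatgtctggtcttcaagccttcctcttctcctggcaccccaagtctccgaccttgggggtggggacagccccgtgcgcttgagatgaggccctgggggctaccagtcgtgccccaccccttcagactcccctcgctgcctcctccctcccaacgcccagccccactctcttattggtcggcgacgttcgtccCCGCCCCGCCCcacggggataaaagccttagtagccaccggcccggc
The Rgs2 window held 2 TGACG matches, on opposite strands, whose first bases lie 185 and 67 bases before the start, and TGACG occurred in 17.8% of all 32851 promoter windows of this length. It also held 4 GC boxes. Rgs4, which did not pass for cocaine, held 2 TGACG matches too, and a window of Rgs8, which did not pass either, held 1. The Rgs10 and Rgs16 windows held 2 GC boxes each, which overlap in Rgs16, and none of the other 3 motifs. GC boxes occurred in 32.7% of all windows, AP-1 motifs in 6.75% and TATAAA in 12.4%. CpG dinucleotides numbered 30 in the Rgs2 window, 27 in Rgs10 and 17 in Rgs16, against a median of 6.0 over all windows. In the other members with an entry they ran from 4 (a window of Rgs8) to 27 (Rgs17). These matches describe the letters of the window, not binding sites.

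**Figure D1:**
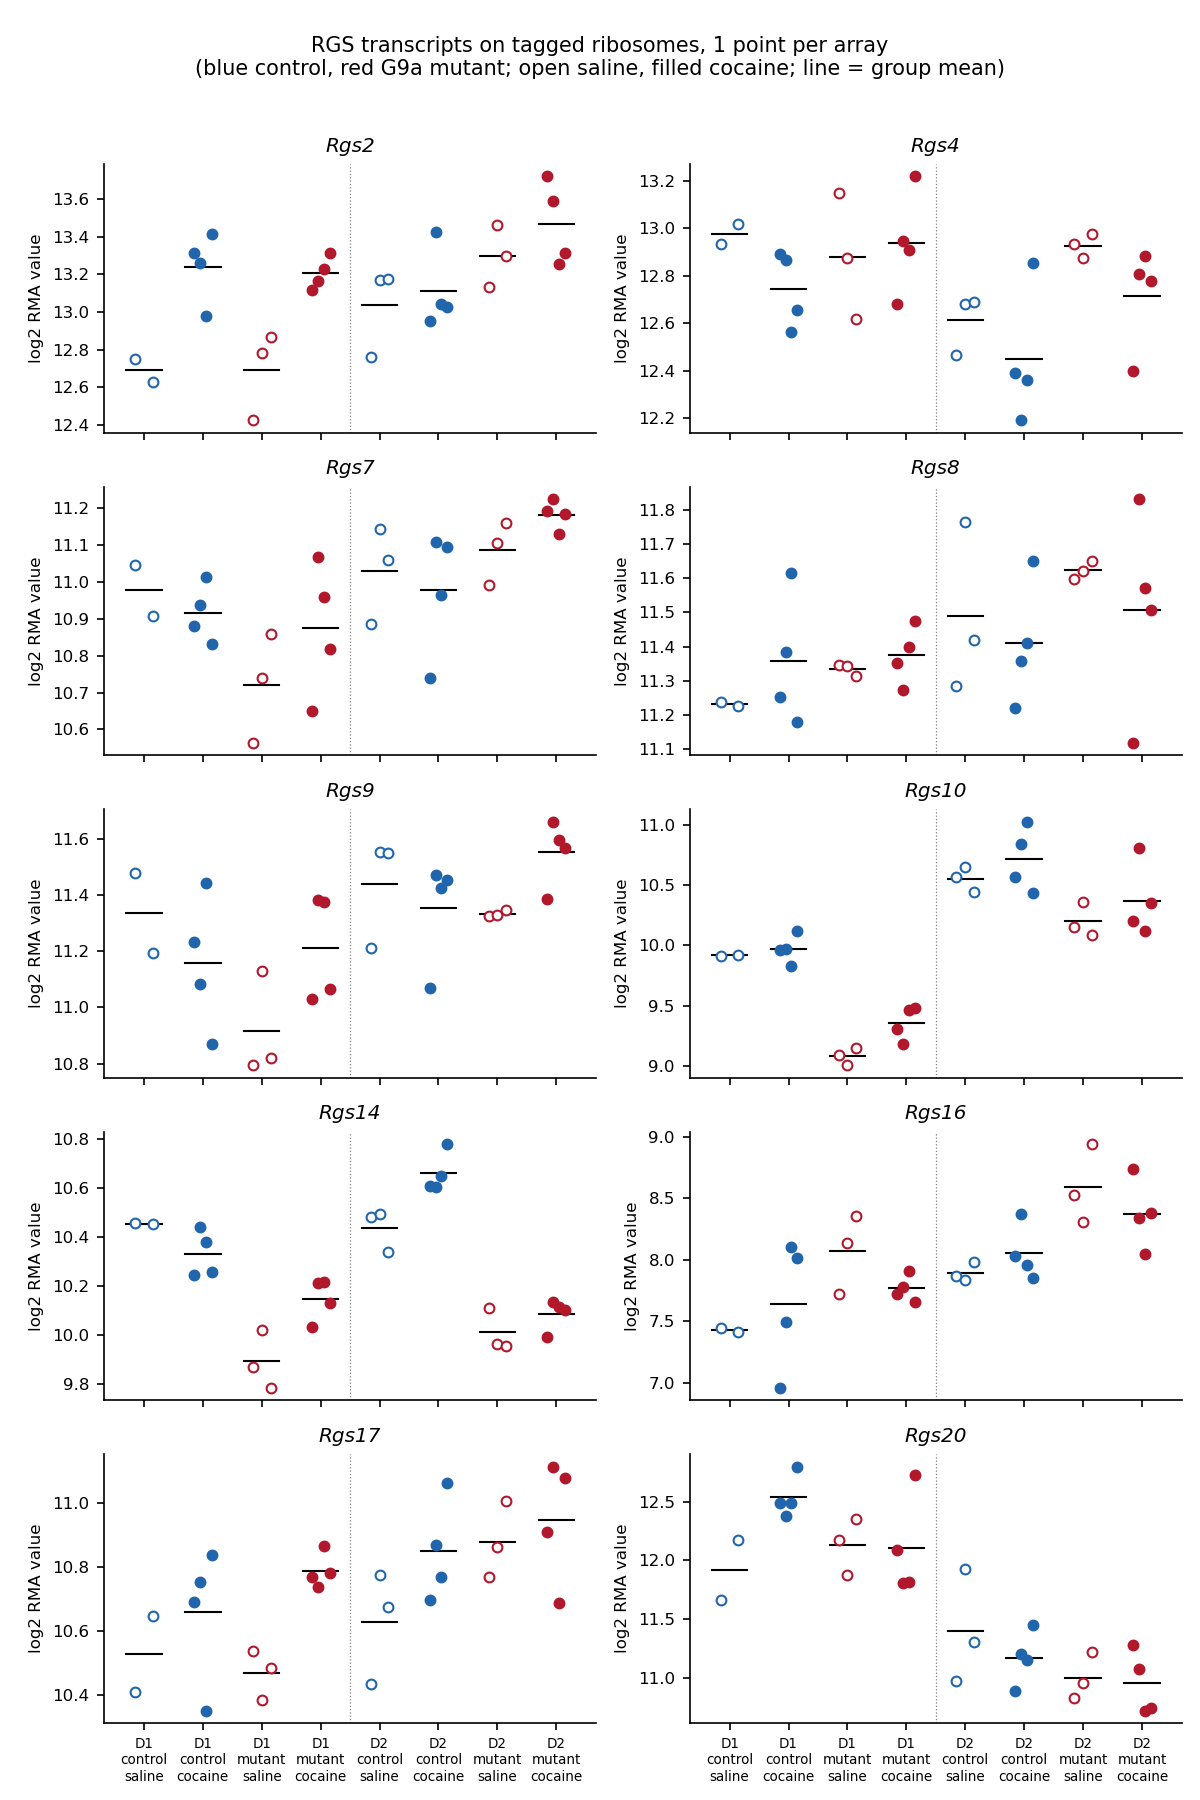
Log2 RMA value of each RGS gene on each of the 27 arrays (y axis), in the 8 groups of subtype, genotype and drug (x axis); blue points are controls, red points G9a mutants, open points saline, filled points cocaine, and lines group means. Rgs10 in D1 mutants (9.004 to 9.48) lay below every other array, and Rgs20 lay higher in D1 than in D2 arrays with little overlap.

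The first comparison asked which RGS transcripts differ between D1 and D2 neurons. In controls 4 of the 10 members differed, 2 higher in D1 neurons (Rgs20, Rgs4) and 2 lower (Rgs10, Rgs16), when 29.0% of all genes tested did (11.9% higher, 17.1% lower). The members' share was thus not far from that of all genes. The median size of change was 0.16 over the members and 0.15 over all genes.

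Of the RZ proteins, Rgs20 had the largest difference among the members. Its values in D1 controls ran from 11.66 to 12.80 with a median of 12.43, and in D2 controls from 10.89 to 11.93 with a median of 11.21. The ranges overlapped through the lowest D1 array (saline replicate 1, 11.66) and the highest D2 array (saline replicate 2, 11.93), and the cocaine arrays of the subtypes did not overlap. The difference was 0.94 (SE 0.163, adjusted p = 0.000117), a 1.91-fold higher level in D1 controls. In mutants it was 1.14 (SE 0.152, adjusted p = 2.0e-06), with 11.80 to 12.72 in D1 and 10.73 to 11.28 in D2 arrays and no overlap. A second, dimmer probe set of Rgs20 showed 0.06 in controls (adjusted p = 0.825) and 0.14 in mutants (adjusted p = 0.503), so the probe sets of this gene disagree on the subtype difference. Rgs17 was 0.14 lower in D1 controls, which did not pass (interval -0.33 to 0.04, adjusted p = 0.238).

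Of the R12 proteins, Rgs10, a small RGS protein with a preference for Gi that is also known from microglia, separated the control arrays without overlap. It ran from 9.83 to 10.12 in D1 controls (median 9.94) and from 10.44 to 11.03 in D2 controls (median 10.56). The level was 0.69 lower in D1 controls (SE 0.104, adjusted p = 2.21e-05), or 1.61-fold. Of 12 microglial markers listed, 11 were on the array and 7, among them Aif1, Cx3cr1 and P2ry12, stayed below the floor of 6 in every array. The summed linear level of the markers ran from 635 to 792 in D1 controls and from 564 to 1082 in D2 controls. Rgs14, which binds inactive Gi as well as active alpha subunits, was 0.16 lower in D1 controls, which just missed the threshold (interval -0.28 to -0.03, adjusted p = 0.052).

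Of the R4 proteins, Rgs4, an abundant striatal regulator of Gi/o and Gq, ran from 12.56 to 13.02 in D1 controls (median 12.88) and from 12.19 to 12.85 in D2 controls (median 12.47). The ranges overlapped, and the level was 0.33 higher in D1 controls (SE 0.111, adjusted p = 0.0273). Its other probe sets were higher too, by 0.70 and 0.53 (adjusted p = 0.0215 and 0.0152). Rgs16, a regulator of Gi and Gq that is induced by many stimuli in other tissues, ran from 6.96 to 8.11 in D1 controls (median 7.47) and from 7.84 to 8.37 in D2 controls (median 7.96). The ranges overlapped through both D1 cocaine arrays above 8, and the level was 0.44 lower in D1 controls (SE 0.158, adjusted p = 0.0384). Rgs16's second probe set showed 0.39 lower (log2 difference -0.39, adjusted p = 0.0179). Rgs2 and Rgs8 did not pass in controls (log2 differences -0.11 and -0.15, adjusted p = 0.480 and 0.263).

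The calls for Rgs4 and Rgs16 rested on single arrays. Leaving out D1 control saline replicate 2 gave 0.31 (adjusted p = 0.11) for Rgs4 and -0.43 (adjusted p = 0.119) for Rgs16. Rgs4 lost its call without any 1 of 4 other arrays and Rgs16 without any 1 of 7 others. Only Rgs10 and Rgs20 were left without D1 control saline replicate 1 or 2, D1 control cocaine replicate 1, D2 control saline replicate 1 or D2 control cocaine replicate 2. Markers of cortical excitatory neurons moved with subtype: 2 of 3 tested were higher in D1 controls, and their sum (6 of 7 listed are on the array) ran from 231 to 790 in D1 and from 161 to 242 in D2 controls, with Slc17a7 and Fezf2 below the floor in every array. With that marker level as a covariate, Rgs4 gave 0.30 (adjusted p = 0.194) and Rgs16 -0.32 (adjusted p = 0.352), while Rgs10 and Rgs20 still passed. Of GABAergic interneuron markers 4 of 6 tested were higher in D1 controls, with sums of 1137 to 1306 against 883 to 1058, and of astrocyte markers 2 of 6 were higher. Both tested cholinergic markers were lower, as were 6 of 10 oligodendrocyte markers. With the oligodendrocyte sum as a covariate, Rgs4 gave 0.33 (adjusted p = 0.151) and Rgs16 -0.56 (adjusted p = 0.0731). The part of the GABAergic, astrocyte and cholinergic markers in the results was not tested.

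In mutants 7 of the 10 members differed between the subtypes, 1 higher (Rgs20) and 6 lower in D1 neurons, against 42.4% of all genes (16.6% higher, 25.8% lower). Rgs10 was 1.07 lower in D1 mutants (SE 0.097, adjusted p = 5.02e-09, or 2.09-fold), and its ranges, 9.004 to 9.48 and 10.09 to 10.81, lay apart. Rgs16 was 0.56 lower (adjusted p = 0.00327) and Rgs2 0.43 lower (adjusted p = 0.00098). Both R7 proteins passed here and not in controls: Rgs7 was 0.34 lower (adjusted p = 0.000559; controls -0.06) and Rgs9, whose long splice form is enriched in striatum, 0.38 lower (adjusted p = 0.0022; controls -0.15). Rgs17 was 0.28 lower (adjusted p = 0.00792), but its second probe set pointed the other way (0.15, adjusted p = 0.172). The other 3 members did not pass, Rgs8 at -0.21 (adjusted p = 0.0740), Rgs4 at 0.09 and Rgs14 at -0.03. The change of the subtype difference with genotype was tested directly, as given below, and passed for no member.

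Oligodendrocyte markers differed between these groups, with a sum over 11 of 12 listed markers of 3218 to 4860 in D1 mutants and 6173 to 8069 in D2 mutants. With that sum as a covariate, Rgs10 alone of the 7 kept its call. Rgs20 gave 1.02 (adjusted p = 0.0543), Rgs7 -0.14 (adjusted p = 0.692) and Rgs9 -0.02 (adjusted p = 0.976). Because the sum itself separated D1 from D2 mutants, this fit cannot tell its part from that of subtype. The microglial sum did not overlap either, at 611 to 839 in D1 mutants and 937 to 1178 in D2 mutants. Of 4 tested microglial markers 1 was lower in D1 mutants. The part of the microglial markers in the Rgs10 difference was not tested.

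**Figure D2:**
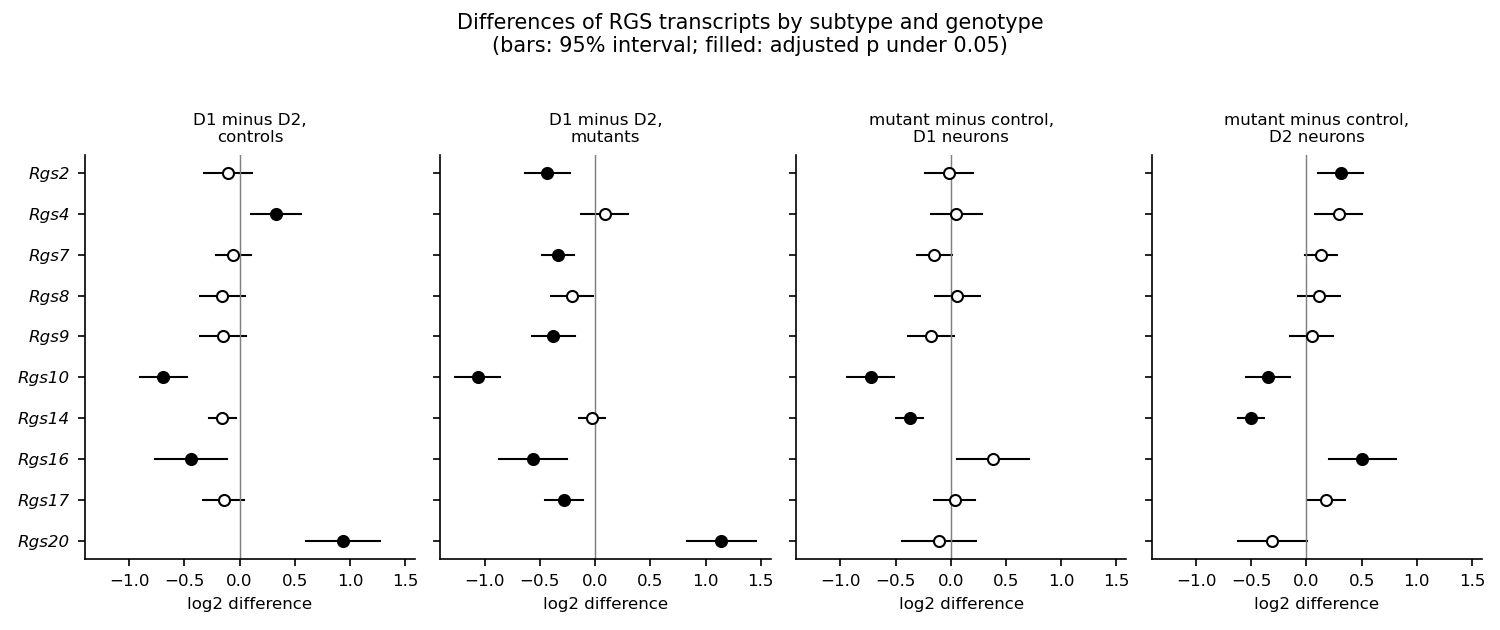
Log2 difference (x axis) of each RGS gene between D1 and D2 neurons in controls and in mutants, and between G9a mutants and controls in each subtype; bars are 95% intervals and filled points had an adjusted p under 0.05. Rgs10 and Rgs14 lay below 0 in both genotype panels, at -0.73 and -0.37 in D1 and -0.35 and -0.50 in D2 neurons.

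The second comparison asked which transcripts differ between G9a mutants and controls in each neuron type. Both R12 proteins fell in both subtypes. In D1 neurons they were the only members that changed, 2 lower and 0 higher, when 4.22% of all genes changed (3.10% higher, 1.12% lower). In D2 neurons 2 members fell (Rgs10, Rgs14) and 2 rose (Rgs16, Rgs2), when 12.2% of all genes changed, 8.41% upward and 3.82% downward.

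Rgs14 in D1 neurons ran from 10.24 to 10.45 in controls (median 10.41) and from 9.78 to 10.22 in mutants (median 10.03). In D2 neurons it ran from 10.34 to 10.78 in controls (median 10.60) and from 9.95 to 10.13 in mutants (median 10.10). No mutant array reached a control array of its subtype. The level fell by 0.37 in D1 mutants (SE 0.0601, adjusted p = 0.000153, or 1.29-fold) and by 0.50 in D2 mutants (SE 0.0562, adjusted p = 3.89e-07, or 1.42-fold). Within drugs, the D1 difference was -0.56 under saline and -0.18 under cocaine, and the D2 difference was -0.43 and -0.57. Mean Ehmt2 in D1 controls and D1 mutants was 10.70 and 8.42 under saline, and 10.28 and 8.99 under cocaine. The cocaine effect on Ehmt2 in D1 mutants minus D1 controls was 1.00 and did not pass (interval 0.44 to 1.55, adjusted p = 0.231). Its part in the Rgs14 differences was not tested.

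Rgs10 in D1 mutants ran from 9.004 to 9.48 (median 9.18), below all D1 controls at 9.83 to 10.12. It fell by 0.73 (SE 0.104, adjusted p = 3.14e-05), or 1.65-fold, with -0.84 under saline and -0.61 under cocaine. In D2 neurons the mutants ran from 10.09 to 10.81 (median 10.20) and the controls from 10.44 to 11.03 (median 10.56), and a single mutant array (cocaine replicate 2, 10.81) lay inside the control range. The fall in D2 neurons was 0.35 on the log2 scale (log2 change -0.35, SE 0.0974, adjusted p = 0.0174). The summed microglial markers ran from 611 to 839 in D1 mutants against 635 to 792 in D1 controls, and none of the 4 tested microglial markers passed there.

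Rgs16 in D2 neurons ran from 7.84 to 8.37 in controls (median 7.96) and from 8.04 to 8.94 in mutants (median 8.38), with overlap. It rose by 0.51 in D2 mutants (SE 0.147, adjusted p = 0.0234), or 1.42-fold, and its second probe set rose by 0.48 (adjusted p = 0.00636). In D1 neurons the change of 0.38 did not pass (interval 0.06 to 0.71, adjusted p = 0.252). The saline arrays of both subtypes gave larger differences, 0.64 in D1 and 0.69 in D2, than the cocaine arrays, 0.12 and 0.32.

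Rgs2, a regulator with a preference for Gq, ran from 12.76 to 13.43 in D2 controls (median 13.04) and from 13.13 to 13.72 in D2 mutants (median 13.31). It rose by 0.31 in D2 mutants (SE 0.0987, adjusted p = 0.0402), with overlap, and none of its 4 probe sets passed when all probe sets were fitted together (adjusted p from 0.0525 to 0.370). In D1 neurons its change was -0.02 (interval -0.23 to 0.20). Rgs4 in D2 mutants came close, at 0.29 (interval 0.08 to 0.50, adjusted p = 0.0689). The other 5 members, Rgs7, Rgs8, Rgs9, Rgs17 and Rgs20, passed in neither subtype, with changes between -0.31 and 0.17.

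Marker levels of other cells moved with genotype in D2 arrays. The oligodendrocyte sum ran from 3121 to 5928 in D2 controls and from 6173 to 8069 in D2 mutants without overlap, and 7 of 10 tested markers rose. The cholinergic marker sum ran from 261 to 562 in D2 controls and from 580 to 786 in D2 mutants, and the cortical sum from 161 to 242 and from 281 to 339, both without overlap. Only 1 of 2 tested cholinergic and 1 of 3 tested cortical markers rose, and the median change of the cortical markers was -0.11. In D2 mutants 3 of 5 cholinergic and 5 of 6 cortical markers on the array stayed below the floor in every array. Drd1 rose by 0.54 in D2 mutants, and of 8 tested D1 markers 4 rose and 0 fell (median change 0.40). Drd2 fell by 0.49, while of 8 tested D2 markers 1 rose and 1 fell (median change -0.03). The microglial sum ran from 564 to 1082 in D2 controls and 937 to 1178 in D2 mutants, and 1 of 4 tested microglial markers rose. Of choroid plexus and ependymal markers 2 of 3 tested rose in D2 mutants, with overlapping sums of 781 to 3557 in controls and 1117 to 1790 in mutants. The part of the cholinergic and microglial markers in the results was not tested. With the oligodendrocyte sum as a covariate, Rgs14 still passed and the other 3 members did not: Rgs10 gave -0.36 (adjusted p = 0.169), Rgs16 0.64 (adjusted p = 0.0761) and Rgs2 0.23 (adjusted p = 0.46). Without the covariate these changes were -0.35, 0.51 and 0.31. Because the sum itself separated D2 controls from D2 mutants, this fit cannot tell its part from that of genotype. In D1 arrays the oligodendrocyte sum overlapped, from 3271 to 4292 in controls and 3218 to 4860 in mutants, and 1 of 10 tested markers rose. Of choroid plexus and ependymal markers 1 of 3 tested rose in D1 mutants, with overlapping sums of 718 to 1649 in controls and 933 to 6222 in mutants. Without the arrays with high Ttr, Rgs10 gave -0.77 and Rgs14 -0.34 in D1 neurons (adjusted p = 3.54e-05 and 0.0017). The cortical sum in D1 arrays ran from 231 to 790 in controls and 368 to 1240 in mutants, with none of 3 tested markers past the threshold.

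The D2 calls other than that of Rgs14 also turned on single arrays. Without D2 mutant saline replicate 3, Rgs14 alone was left, with Rgs10 at -0.32 (adjusted p = 0.0552) and Rgs16 at 0.42 (adjusted p = 0.0903). Counting the array with conflicting labels as a D2 control also left Rgs14 alone, and without D2 control saline replicate 1 only Rgs10 and Rgs14 passed. Rgs16 lost its call without any 1 of 4 arrays and Rgs2 without any 1 of 8. Rgs10 and Rgs14 in D1 neurons, and Rgs14 in D2 neurons, kept their calls under every setting and every left-out array that was run.

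Whether the genotype effect differed between the subtypes was tested as D2 minus D1. None of the 10 members passed, and 0.990% of all genes did. By limma, 3 members had an unadjusted p under 0.05: Rgs10 (0.38, interval 0.08 to 0.67, adjusted p = 0.251), Rgs7 (0.28, interval 0.06 to 0.50, adjusted p = 0.246) and Rgs2 (0.33, interval 0.03 to 0.62, adjusted p = 0.354). Of all 12017 genes tested, 1474 had an unadjusted p under 0.05. For Rgs14 the difference was -0.13 (interval -0.30 to 0.04). The other 6 lay between -0.20 (Rgs20) and 0.24 (Rgs4).

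The third comparison was cocaine against saline. Over the mean of the 4 subtype and genotype groups, Rgs2 alone of the 10 members passed and rose by 0.33 (SE 0.0723, adjusted p = 0.0233), or 1.26-fold, when 0.799% of all genes changed (0.649% higher, 0.150% lower). The other 9 members lay between -0.14 (Rgs4) and 0.18 (Rgs17), with Rgs10 at 0.16 and Rgs14 at 0.11. Of 13 tested immediate early genes, 11 rose in the same comparison.

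In D1 controls Rgs2 read 12.75 and 12.63 with saline, and 13.31, 13.26, 12.98 and 13.41 with cocaine. In D1 mutants it read 12.42, 12.78 and 12.86 with saline, and 13.12, 13.16, 13.23 and 13.31 with cocaine. Every D1 cocaine array thus lay above every D1 saline array, in both genotypes. The difference was 0.55 in D1 controls (SE 0.158, adjusted p = 0.160) and 0.52 in D1 mutants (SE 0.140, adjusted p = 0.139), and neither passed by itself.

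In D2 controls Rgs2 read 12.76, 13.17 and 13.18 with saline, and 12.95, 13.43, 13.04 and 13.02 with cocaine. In D2 mutants it read 13.13, 13.46 and 13.30 with saline, and 13.72, 13.59, 13.25 and 13.31 with cocaine. The drug groups overlapped in both genotypes, with differences of 0.08 (interval -0.21 to 0.36) and 0.17 (interval -0.12 to 0.46). The cocaine effect in D1 minus that in D2 neurons was 0.41 (interval 0.11 to 0.71) and did not pass (adjusted p = 0.274). The cocaine effect did not differ detectably between genotypes, at -0.04 for mutants minus controls in D1 neurons (interval -0.47 to 0.40) and 0.10 in D2 neurons (interval -0.31 to 0.50).

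**Figure D3:**
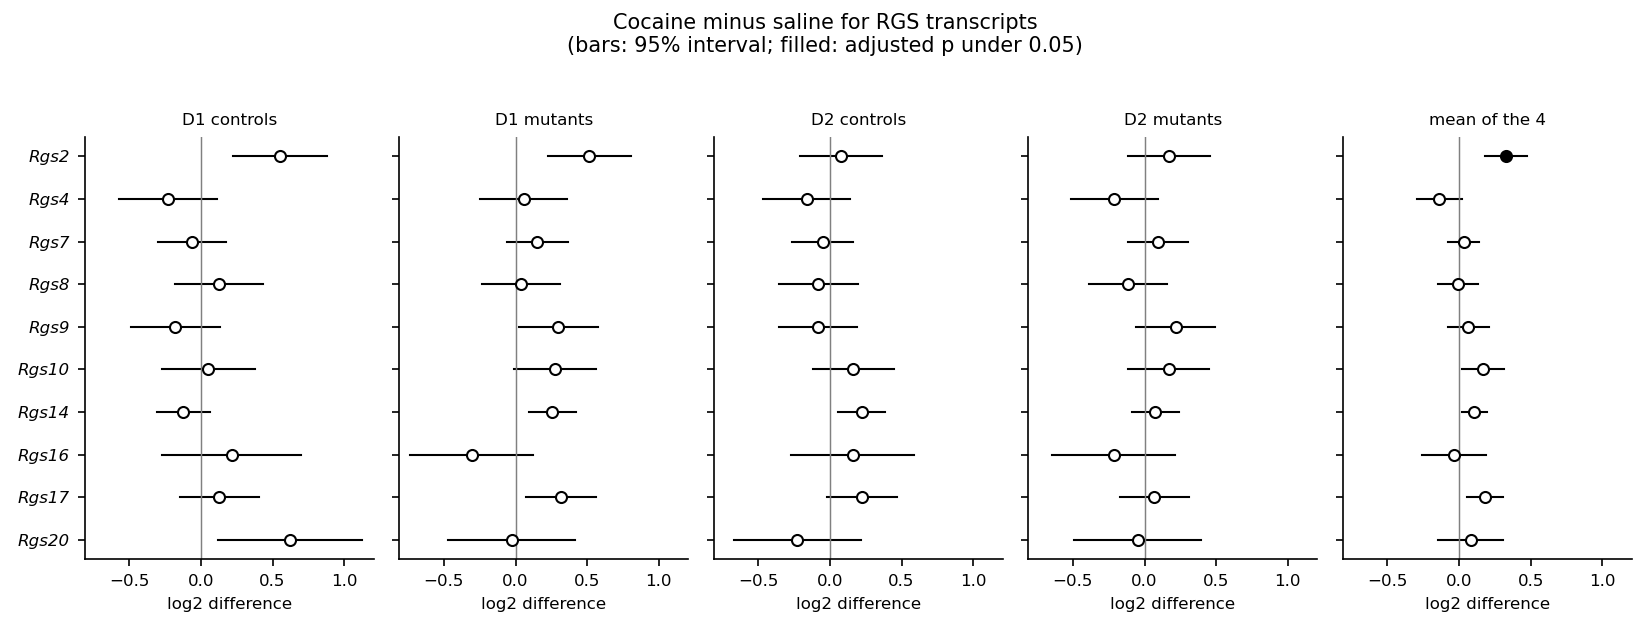
Log2 difference between cocaine and saline (x axis) of each RGS gene in each subtype and genotype and as the mean of the 4 groups; bars are 95% intervals and filled points had an adjusted p under 0.05. Rgs2 stands at 0.55 and 0.52 in the D1 groups, 0.08 and 0.17 in the D2 groups and 0.33 in the mean, the single filled point.

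The pooled Rgs2 result was close to the threshold. It was lost without D1 control saline replicate 1 or 2, D1 mutant saline replicate 1, D2 control saline replicate 1 or D2 mutant saline replicate 1, with adjusted p up to 0.105 and changes of 0.29 to 0.34. Cyclic loess gave 0.28 (adjusted p = 0.0603). Of the other 3 Rgs2 probe sets, 1 rose by 0.53 (adjusted p = 0.0289), a second gave 0.28 (adjusted p = 0.0562), and the dimmest gave 0.04 (adjusted p = 0.922).

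Within single groups no member passed for cocaine: 0 of 10 in D1 controls (0.0666% of all genes), D1 mutants (0.0915%), D2 controls (0.133%) and D2 mutants (0% of all genes). By limma, unadjusted p-values under 0.05 numbered 2, 4, 1 and 0 of the 10 members in these groups. Over all 12017 genes tested they numbered 1402, 1412, 1130 and 588. With array weights 1 member passed in D1 controls and 2 in D1 mutants. Rgs17, which in brain is found with mu opioid receptors, read 10.54, 10.39 and 10.49 with saline and 10.77, 10.74, 10.86 and 10.78 with cocaine in D1 mutants. These groups did not overlap, and the difference of 0.32 did not pass (SE 0.118, adjusted p = 0.291).

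Rgs20 in D1 controls read 11.66 and 12.17 with saline and 12.49, 12.37, 12.49 and 12.80 with cocaine. These did not overlap either, with a difference of 0.62 (interval 0.12 to 1.12, adjusted p = 0.304), whereas in D1 mutants the difference was -0.03. Rgs14 in D1 mutants read 9.87, 10.02 and 9.78 with saline and 10.03, 10.21, 10.22 and 10.13 with cocaine. These did not overlap, with a difference of 0.26 (adjusted p = 0.209). Its drug groups also lay apart in D2 controls (0.22, adjusted p = 0.324) and, the other way, in D1 controls (-0.12, adjusted p = 0.648). So did those of Rgs4 in D1 controls (-0.23), Rgs10 in D1 mutants (0.28) and Rgs9 in D2 mutants (0.22), none of which passed. The share of all genes whose drug groups lay apart was not counted. With so few arrays per group, drug groups can lie apart by chance. The separations within a group, those of Rgs2 and Rgs17 included, are therefore descriptions and not changes. The genotype difference of the cocaine effect passed for no member in D1 or D2 neurons (0% of all genes in each), with Rgs14 at 0.38 (interval 0.13 to 0.63, adjusted p = 0.270) and Rgs20 at -0.65 (adjusted p = 0.468) in D1 neurons, and neither did the subtype difference (0.0250%).

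**Figure D4:**
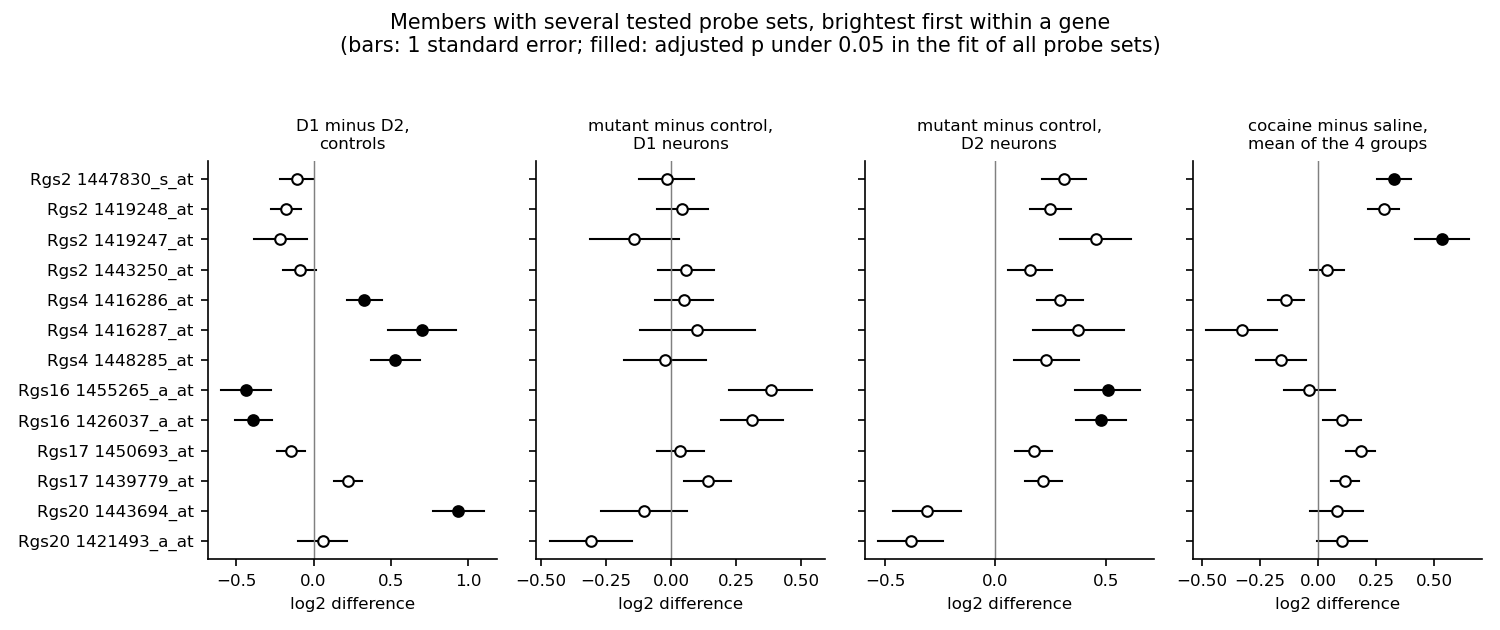
Log2 difference (x axis) for each tested probe set of the 5 members with more than 1, in 4 comparisons, the brightest probe set first within a gene; bars are 1 SE and filled points passed in a fit of all probe sets. The probe sets of Rgs4 and Rgs16 lie on the same side in the subtype panel, and those of Rgs20 differ, at 0.94 and 0.06.

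Probe sets bear on how far a gene's value can be read. Over the 27 arrays, the second Rgs2 probe set had r = 0.935 with the one used, and the second Rgs16 probe set r = 0.819. The second Rgs17 and Rgs20 probe sets followed theirs less closely, at r = 0.340 and 0.380, as a description over arrays that share groups. Rgs7, Rgs8, Rgs10 and Rgs14 are read by 1 probe set each, and Rgs9 by 1 above the floor, so that a second reading was not to be had for them.

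The partners of these proteins on the array were described as lists. Of 5 listed partners of R7 proteins, 3 were tested and all 3 differed between D1 and D2 controls, where 29.0% of all genes did (11.9% higher, 17.1% lower). Gnb5, the obligate beta subunit of R7 proteins, was lower in D1 controls (log2 difference -0.48, adjusted p = 0.000294), as was Rgs7bp, which anchors the complex to the membrane (-0.61, adjusted p = 0.00141). Gpr158, an orphan receptor that binds Rgs7, was higher (0.60, adjusted p = 0.0123). None of the 3 passed for G9a loss in either subtype or for cocaine.

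Of 13 listed alpha subunits, the substrates of RGS proteins, 11 were tested, and 3 were higher and 3 lower in D1 controls against the same 29.0% of all genes. Gnai1, a Gi subunit, was 1.45 higher (SE 0.110, adjusted p = 2.84e-10), and Gnaz, the Gz subunit on which the RZ proteins Rgs17 and Rgs20 act, was 1.06 higher (SE 0.0911, adjusted p = 2.59e-09). Gnas, Gnao1 and Gnal, the Golf subunit, were lower, at -0.85, -0.61 and -0.35. None passed for G9a loss in D1 neurons or for cocaine, and 1 rose in D2 mutants (Gna12, 0.27, adjusted p = 0.00993), where 8.41% of all genes rose.

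Of 11 tested beta and gamma subunits, 4 were higher and 3 lower in D1 controls (29.0% of all genes). Gng4 and Gnb4 were higher, at 2.24 (adjusted p = 1.21e-11) and 2.16 (adjusted p = 5.37e-10), and Gng7, which pairs with Golf in striatum, was lower at -0.67 (adjusted p = 2.86e-06). None passed in the genotype comparisons or for cocaine. The median over these 11 was -0.10 and that over all genes -0.03.

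**Figure D5:**
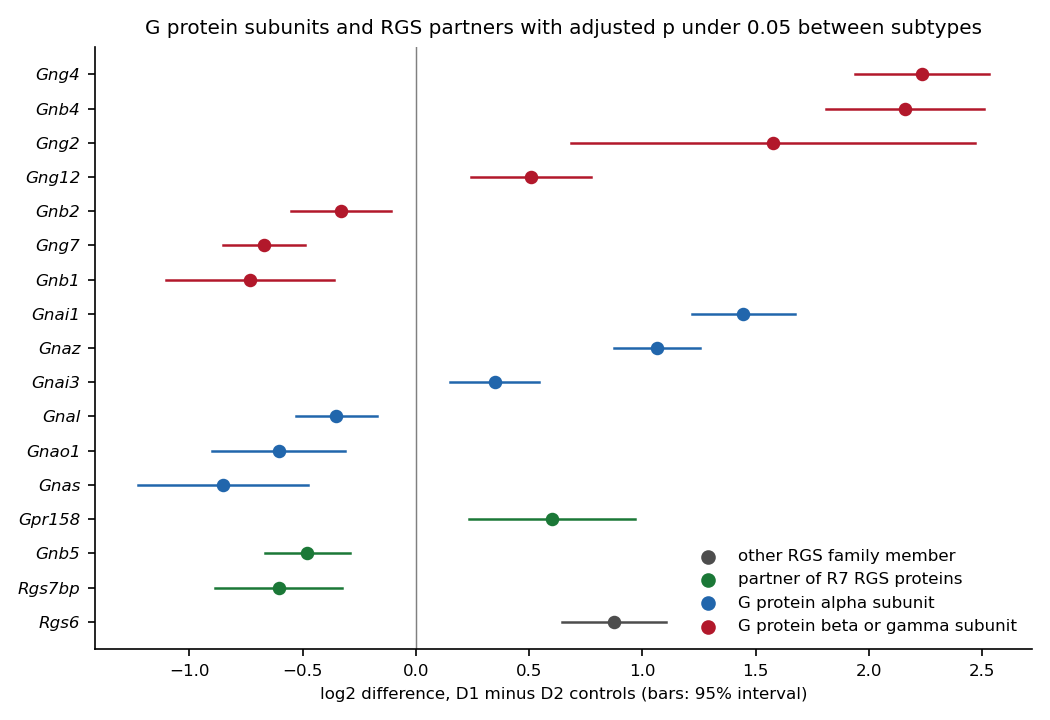
Log2 difference between D1 and D2 controls (x axis) of every G protein subunit, R7 partner and other RGS gene on the lists with an adjusted p under 0.05; bars are 95% intervals and colours give the list. Gng4, Gnb4 and Gng2 lie farthest to the right, at 2.24, 2.16 and 1.58.

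Of 11 other RGS genes listed, 9 were on the array and 6 were tested. Rgs6, an R7 protein close to Rgs7, was higher in D1 controls at 0.87 (SE 0.111, adjusted p = 2.06e-06) without overlap. Rgs19, an RZ relative of Rgs17 and Rgs20, rose by 0.27 in D1 mutants (adjusted p = 0.0315) and by 0.32 in D2 mutants (adjusted p = 0.00275). Rgs5, also known from pericytes, rose by 0.87 in D2 mutants (adjusted p = 0.00181), where 0 of 3 tested endothelial and mural markers passed. Of the 10 such markers on the array, 7 stayed below the floor in every D2 mutant array. These markers therefore say little about pericytes, whose part in the Rgs5 change was not tested. Of 10 other tested proteins with an RGS homology domain, 1 rose in D2 mutants, the receptor kinase Grk5 (0.62, adjusted p = 0.00166), where 12.2% of all genes changed.

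Of 6 tested regulators of other kinds, 1 was higher and 2 lower in D1 controls, where 11.9% of all genes were higher and 17.1% lower. The 1 higher was Gpsm1, which binds inactive Gi, at 0.75. The 2 lower were the small G proteins Rasd1 and Rasd2, at -0.40 and -0.28. Rasd1, a dexamethasone-induced gene, also rose with cocaine in the mean of the groups (0.49, adjusted p = 0.0145), as Rgs2 did.

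Upstream, 11 striatal receptors were tested. In controls 1 was higher in D1 neurons (Drd1) and 6 were lower, where 11.9% of all genes were higher and 17.1% lower. Gpr6, Drd2, Oprd1 and Htr2c stood at -5.01, -6.50, -2.25 and -1.21. Drd1, Drd2, Gpr6 and Oprd1 are also among the D1 and D2 markers used to check the labels, so their calls here repeat that check. In D2 mutants, where 8.41% of all genes rose and 3.82% fell, 2 rose and 3 fell. Drd1 (0.54, adjusted p = 0.00113) and Htr1b (0.47, adjusted p = 0.00367) rose. Htr2c (-0.65, adjusted p = 1.38e-05), the kappa opioid receptor Oprk1 (-0.48, adjusted p = 0.000662) and Drd2 (-0.49, adjusted p = 0.00315) fell. In D1 mutants, where 1.12% of all genes fell, 1 fell, Htr2c (-0.37, adjusted p = 0.0264). Downstream, 11 effectors were tested and 2 rose and 1 fell in D2 mutants (12.2% of all genes changed): Plcb4, a phospholipase activated by Gq (0.82, adjusted p = 2.84e-05), Adcy2, an adenylyl cyclase (0.74, adjusted p = 0.000222), and the potassium channel Kcnj3 (-0.46, adjusted p = 0.0273).

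Members varied together over the 27 arrays to different degrees, which is a description that includes the group differences. Among the 45 pairs the highest Pearson r was between the R7 proteins Rgs7 and Rgs9 (0.852), then between Rgs2 and Rgs17 (0.705) and Rgs2 and Rgs7 (0.601). The R12 proteins Rgs10 and Rgs14 had r = 0.594. The lowest was between Rgs9 and Rgs20 (-0.589).

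The genes whose pattern over the 27 arrays was most like a member's were named by the highest r, clone and predicted-gene symbols left out. For Rgs14 the first was Ehmt2 itself (0.913), followed by Niban3 (0.867) and Vat1l (0.866), so Rgs14 was low in the arrays where Ehmt2 was low. For Rgs10 they were Fst (0.933), Gli3 (0.911) and Pcdh17 (0.892), and for Rgs20 Trmt61a (0.943), Gskip (0.933) and Fam160b2 (0.924). For Rgs9 they were Bop1 (0.913), Fbxo6 (0.908) and Pde1b (0.904). For Rgs2 they were Jarid2 (0.893), Gpt2 (0.879) and Dnajb5 (0.857). For the other 5 members the highest r was 0.847 for Rgs4 (Pwwp3a), 0.885 for Rgs7 (Fasn), 0.896 for Rgs8 (Stx18), 0.846 for Rgs16 (Rph3al) and 0.836 for Rgs17 (Noct). Genotype and subtype move these genes together, so the values say nothing of control of one by another.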

How the data were processed

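Ribosome-bound RNA of 27 samples was hybridised to Affymetrix whole-genome mouse arrays. The authors deposited log2 values. Per the submitters' processing notes these came from Affymetrix Expression Console 1.1 with RMA, which subtracts background and gives arrays the same distribution, so changes are relative to the other genes on the array. Array medians lay between 5.70 and 5.82. The number of arrays limits the precision, and the p-values measure the spread between the samples of a group, which the labels describe as mice.

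Of 45101 probe sets, 34945 had 1 gene symbol, 932 several and 9160 none, and 64 were controls. Each symbol was read from the probe set with the highest mean. Genes above 6 in at least 3 arrays were tested with limma 3.58.1 in R 4.3.3, with 1 mean for each of 8 groups, over 13 comparisons. No pair of arrays held the same values (smallest mean absolute difference 0.137). Marker sums are over linear values. Likeness is Pearson's r, with the 3 highest genes named per member after clone and predicted-gene symbols were left out. The text covers all members in every comparison, in ranges where none passed. Of each list it names at most 5 of the genes that passed, by smallest adjusted p. The members and gene lists were chosen with earlier results of these data known. The script was tested on simulated data: in D1 against D2 controls, 82% of genes changed by 0.5 and 98% of those changed by 1 were recovered, and for cocaine in D1 controls 50% and 97%. The simulation changed 100 genes by each size, whereas in the data 8 genes passed for cocaine in D1 controls. The recovered shares therefore need not hold there.

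Alternatives covered the probe set, the filter, cyclic loess, median centring, moderation, array weights, RNA quality (3' minus 5' signal, 1.96 to 2.90), high Ttr, the array with conflicting labels, the replicate number, 1 subtype per fit and each array left out. The covariates for cortical and oligodendrocyte markers were added after seeing the data.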

Additional observations from a re-analysis of the deposited data

Results flagged for a closer look

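Rgs9 in the D2 control cocaine group had 1 array apart from the others. Replicate 1 read 11.07, and the other 3 arrays lay between 11.42 and 11.47. This was 1 of 40 groups of 4 to 10 arrays examined for such a gap, and chance gives about 1 in 20.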

How the results depend on the processing

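Over 18 member results that passed, 210 of 240 other settings and 455 of 486 fits without 1 array kept the call. Counts of members that passed moved as follows. D1 against D2 controls fell from 4 to 2 with the cortical and to 2 with the oligodendrocyte covariate, and ran from 2 to 5 without single arrays. D1 against D2 mutants fell from 7 to 4 with the cortical and to 1 with the oligodendrocyte covariate. G9a loss in D2 neurons fell from 4 to 1 with the array of conflicting labels as a control and to 1 with the oligodendrocyte covariate, and ran from 1 to 4 without single arrays. Array weights gave 1 member for cocaine in D1 controls, 2 in D1 mutants, 2 over all groups and 1 (Rgs2) for the D1 minus D2 difference. Cocaine over all groups gave 0 with cyclic loess, and 0 to 1 without single arrays. The only reversal was Rgs17's second probe set in mutants (0.15). The causes of these shifts were not tested. Between D1 and D2 mutants neither the cortical nor the oligodendrocyte sum overlapped, and the same held for both sums between D2 controls and D2 mutants. There a covariate fit cannot tell the marker level from subtype or genotype.

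Whether replicate numbers pair the samples could not be told: deviations of same-numbered arrays correlated between -0.395 and 0.469 (35 pairs, median 0.0111, 11 above 0.1). Differently numbered arrays were not compared, so this check cannot exclude pairing. With the replicate block, Rgs9 gave -0.24 (adjusted p = 0.185) and Rgs17 -0.16 (adjusted p = 0.354) in D1 against D2 mutants, and Rgs4 in D2 mutants gave 0.29 (adjusted p = 0.0499); no other member call changed. With 2 saline arrays in D1 controls, cocaine effects there are the least precise.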

Other observations

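The genes that neighbour the members on the chromosome, by the order of RefSeq genes, were read for G9a loss, with 3 genes on each side. Of 39 tested, each counted once, 1 passed in D1 mutants (4.22% of all genes did) and 6 in D2 mutants (12.2%). The 39 include the members Rgs8 and Rgs16, which neighbour each other, and Rgs16 is 1 of the 6. In D1 mutants the gene that passed was Bag3 near Rgs10 (0.47, adjusted p = 0.018), where Rgs10 fell. In D2 mutants Bag3 rose by 0.79, and Tgfb1i1 on the other side of Rgs10 fell (-0.35, adjusted p = 0.0162). None of the 4 tested neighbours of Rgs14 passed in either subtype. Rgs8 lies next to Rgs16, and Rgs16 rose in D2 mutants while Rgs8 changed by 0.11 (adjusted p = 0.475). Ro60 near Rgs2 rose there by 0.26 (adjusted p = 0.0349), and Oprk1 near Rgs20 fell (-0.48, adjusted p = 0.000662). Rgs4 lies next to Rgs5, which rose there by 0.87, and Rgs4 itself changed by 0.29 (adjusted p = 0.0689).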
